A study of Mus musculus with 6 samples.

Results

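The respiratory chain is the set of protein complexes in the inner mitochondrial membrane that pass electrons from nutrients to oxygen and use the energy to make ATP. Its subunit genes were followed in mouse BMSCs (bone marrow stromal cells, adherent marrow cells able to form bone) under medium conditioned by a liver tumour line. The members were chosen by a rule on symbols, with earlier results of these data known. They are the genes named Ndufa, Ndufb, Ndufc, Ndufs or Ndufv with a number, Sdha to Sdhd, and those beginning with Uqcr, Cox4 to Cox8 or Atp5, together with the mitochondrial mt-Nd, mt-Co, mt-Cytb and mt-Atp genes. This gave 111 genes of the 56691 in the table, 98 of the nuclear genome and 13 of the mitochondrial genome. The nuclear members comprised 37 of complex I, 4 of complex II, 10 of complex III, 21 of complex IV and 26 of complex V. The mitochondrial members comprised 7 of complex I, 1 of complex III, 3 of complex IV and 2 of complex V. Among the nuclear members, 12 are annotated as pseudogenes.

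All cells came from wild-type mice and were differentiated towards osteoblasts for 7 days. Both groups received α-MEM with 10% FBS, penicillin/streptomycin, 50 µg/ml ascorbic acid and 1.08 mg/ml beta-glycerophosphate, renewed every 2 days. In the 3 conditioned medium samples this was combined with medium taken from the mouse hepatoma line Hepa 1-6, and in the 3 control samples with control medium. The strain, sex and age of the mice are not given in the sources used here, nor whether the control medium had been on other cells. Nor is it stated that replicates were separate mice or cultures, so p-values here reflect the spread among the 6 samples and this spread may be technical.

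Complex I takes electrons from NADH and complex II takes them from succinate, and both hand them to ubiquinone. Complex III passes them to cytochrome c, complex IV passes them to oxygen, and complex V uses the proton gradient that results to make ATP. Complex II is encoded in the nucleus throughout, whereas the other complexes combine nuclear subunits with subunits made inside the mitochondrion. Differentiating osteoblasts are known to draw on both glycolysis and respiration.

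Libraries held 18661629 to 21329475 counts of poly(A) RNA. The cultures were mixed: the summed level of 8 macrophage markers was 2223 to 2419 FPKM in control and 1735 to 1779 FPKM in conditioned medium, where FPKM is fragments per kilobase of exon scaled to the library's total count. Of these markers 2 rose and 6 fell, among them Csf1r, the receptor for macrophage colony-stimulating factor (log2 fold change -1.35). The osteoblast markers, 5 tested of 7 listed, all fell, from a summed 806 to 892.8 FPKM to 647.2 to 700.2 FPKM, with Col1a1, the main bone collagen chain, at -0.29 and Sp7, the osteoblast transcription factor, at -1.57. Of 4 tested stromal markers 3 rose and 1 fell, with summed levels of 360.5 to 370.4 FPKM and 427.8 to 448.1 FPKM. The summed osteoclast markers were at 57.9 to 63.3 FPKM in control and 113.5 to 117.2 FPKM in conditioned medium, with 1 rise of 2 tested (Acp5, tartrate-resistant acid phosphatase, 1.65). Neutrophil markers went from 4.57 to 6.93 FPKM to 23.4 to 27.2 FPKM, with S100a8 at 2.73 and S100a9 at -1.13, while Ly6g had at most 1 count a library. Adipocyte markers went from 9.2 to 9.88 FPKM to 21.6 to 23.7 FPKM, with Fabp4, a fatty acid carrier, at 1.32 and Adipoq and Plin1 below the filter. No marker of these lists was at 0 in all libraries. Of the hepatoma markers Hnf4a was at 0 and Afp was not called. The part of these cell types in the results below was not tested, and in bulk RNA fewer cells of a type and less RNA per cell cannot be told apart.

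Most respiratory chain genes changed little. Of the 96 members tested, 22 passed an adjusted p under 0.05, 14 of which rose and 8 fell in conditioned medium. That is 22.92% of the tested members, whereas 45.9% of all 12153 tested genes passed, 23% as rises and 22.9% as falls. The median absolute log2 fold change was 0.106 among the members and 0.183 among all tested genes, and 73 of the 96 members stayed within 0.2 of 0. One member, Cox4i2, was called with a change of at least 2-fold, against 5.28% of all tested genes called with such a change. The FPKM values of the groups did not overlap for 22 members, and for 53.2% of all tested genes. The call and the separation of the groups coincided in all but 8 genes: Ndufb11, Ndufv3, Atp5g3 and Atp5l were called with overlapping groups, and Ndufa4, Sdha, Atp5j and Atp5pb had separate groups without a call.

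**Figure D1:**
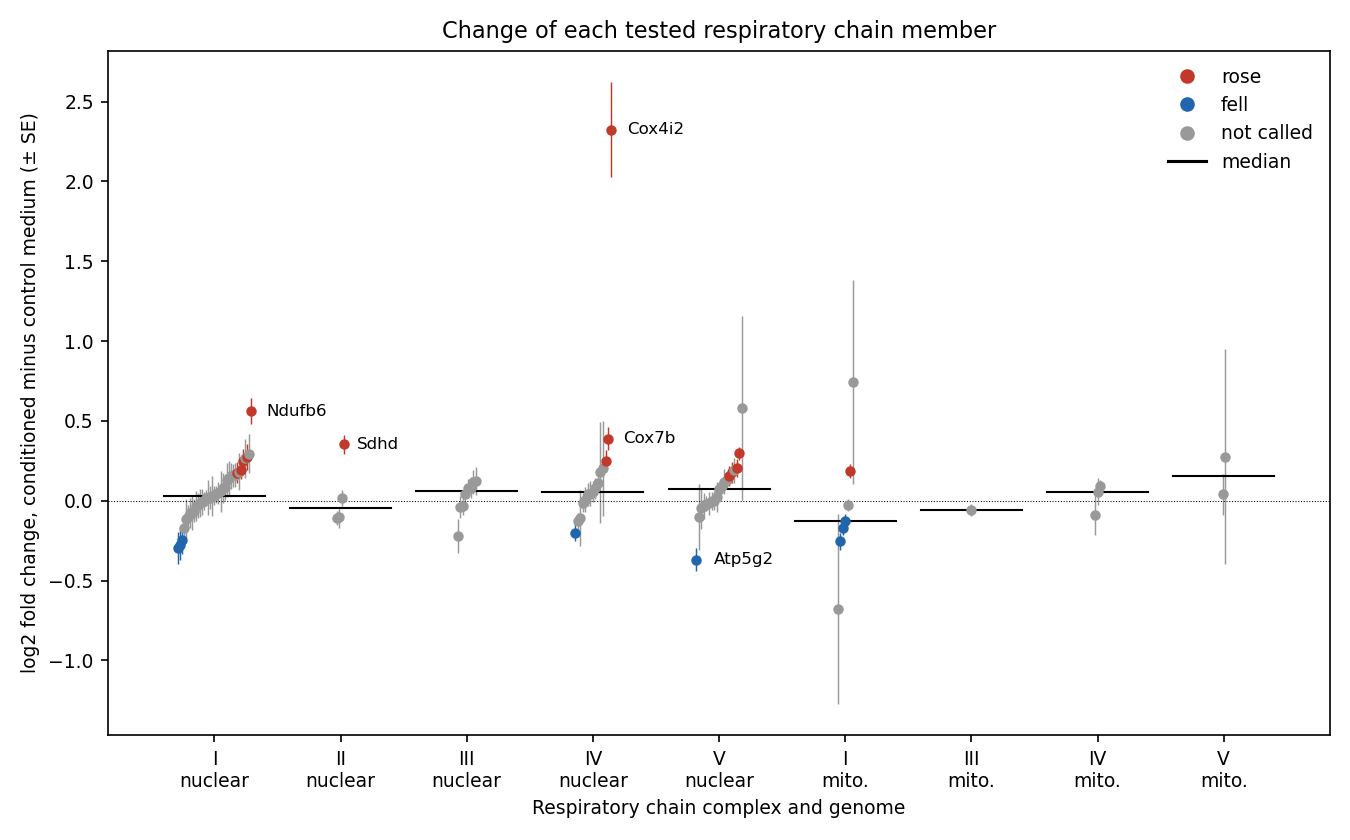
Each point is 1 tested member, with its log2 fold change (conditioned minus control medium) ± SE on the y axis and its complex and genome on the x axis; red marks called rises, blue called falls, grey no call, and bars the median of each set. Cox4i2 stands at 2.32, and 73 of the 96 members lie within 0.2 of 0.

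Most nuclear calls were rises and most mitochondrial calls were falls: 13 nuclear members rose and 5 fell of 83 tested, and 1 mitochondrial member rose and 3 fell of 13 tested. The difference between the genomes was not tested. The mitochondrial side rests on 4 calls, all in complex I. Of these the fall of mt-Nd4 was lost without control replicate 2 and without each conditioned medium replicate. The mitochondrial members mt-Nd3, mt-Nd4l and mt-Atp8 had 2 to 15 counts a library. The median log2 fold change was 0.04 over the nuclear members, -0.03 over the mitochondrial members and -0.003 over all tested genes. The nuclear split depended on scaling and on 2 control libraries: it was 10 rises and 8 falls with the total count as the only scaling, 10 and 9 on the TPM scale, 9 and 10 without control replicate 3, and 21 and 3 without control replicate 2. In control replicate 3 the median nuclear member stood 0.10 below the control mean on the log2 scale (-0.1037), while control replicates 1 and 2 stood at 0.02 and 0.09 and the conditioned medium libraries at 0.08, 0.07 and 0.01. The nuclear median turned to -0.007 without control replicate 3 and to -0.011 on the TPM scale. For the same 3 control and 3 conditioned medium libraries the mitochondrial medians were -0.09, 0.06 and 0.04, and -0.04, -0.04 and -0.05.

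The share of the counts that fell on the members was close in both groups. mt-Co1 made up 47.9% to 50.9% of the mitochondrial counts. The mitochondrial sum holds few counts of mt-Co2, mt-Co3, mt-Atp6, mt-Nd3 and mt-Nd4l, which have near-identical copies on chromosome 1. Mitochondrial members took 1.795%, 1.994% and 1.894% of the counts in control replicates 1 to 3 and 1.903%, 1.867% and 1.927% in conditioned medium. The groups overlapped, at 1.894% ± 0.0995 and 1.899% ± 0.0302 (SD, n = 3 each). Nuclear members took 0.439%, 0.447% and 0.399% in control and 0.453%, 0.449% and 0.438% in conditioned medium, again with overlap.

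**Figure D2:**
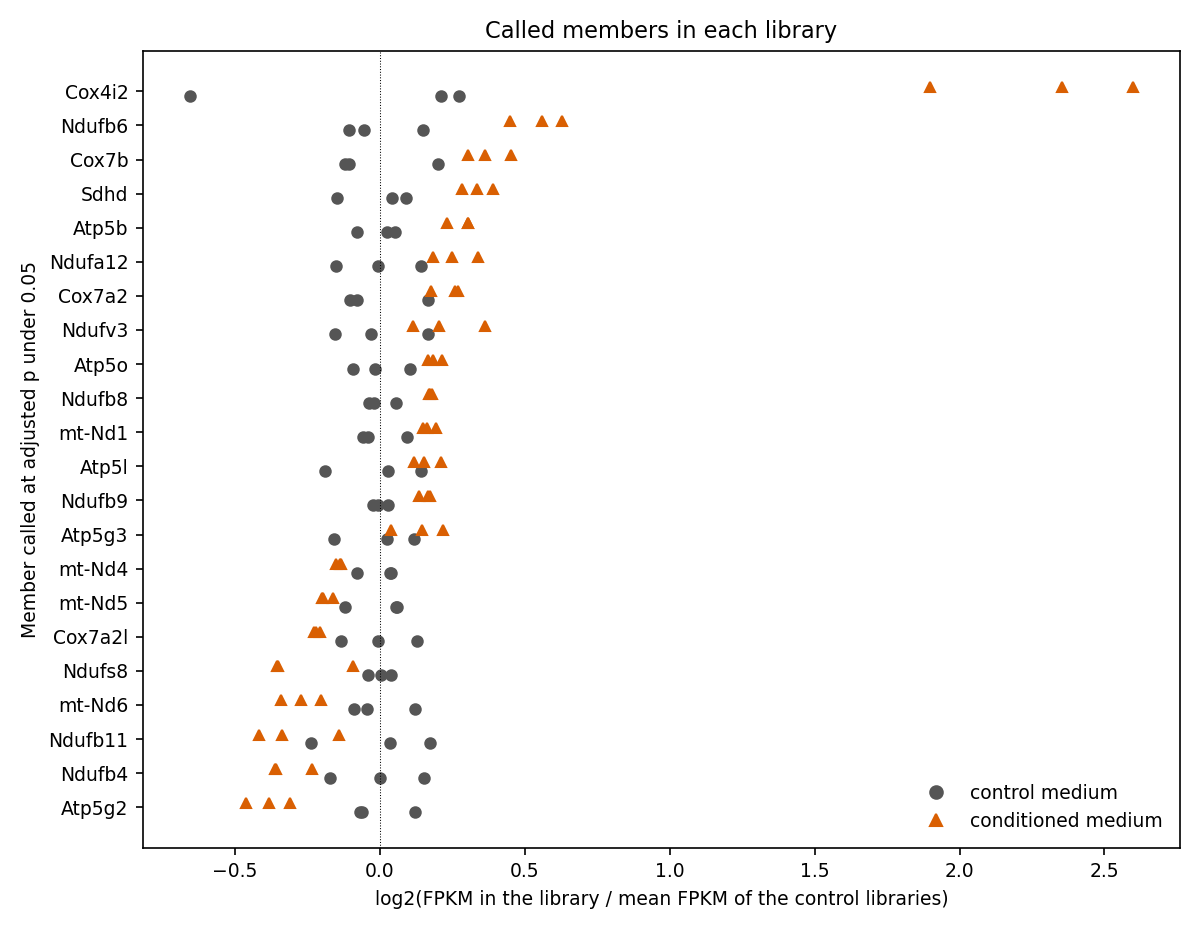
For each of the 22 called members (y axis) the x axis gives log2 of the FPKM in a library over the control mean; grey circles are the 3 control and orange triangles the 3 conditioned medium libraries. Cox4i2 separates the groups most widely, while Ndufb11, Ndufv3, Atp5g3 and Atp5l show overlapping groups.

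Below the level filter of a mean of 1 FPKM were 15 members, of which 9 are pseudogenes and 6 are not. Cox8b, Cox8c, Cox7b2 and a second gene model named Atp5o had no count in any library. Cox6c2 had 1 to 5 counts a library and Cox7a1 3 to 15. The 3 pseudogenes that passed the filter, Cox5b-ps, Atp5pb-ps and Atp5k-ps2, were not called.

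Among the 37 nuclear complex I genes, all of which were tested, 5 rose, 3 fell and 29 were not called. Complex I has a core of catalytic subunits and a larger shell of accessory subunits. Of the 7 nuclear core genes, 1 fell and none rose, and of the 30 accessory genes 5 rose and 2 fell. The count and its split rested on single libraries. There were 5 rises and 0 falls without control replicate 1, 10 and 1 without control replicate 2, and 3 and 5 without control replicate 3. Without conditioned medium replicate 1 there were 2 rises and 1 fall, and without replicate 2 or 3 there were 5 and 1.

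Ndufb6, an accessory subunit of the membrane arm, had the largest rise in complex I. Its level was 28.6, 34.2 and 29.7 FPKM in control replicates 1 to 3 and 42.1, 47.7 and 45.4 FPKM in conditioned medium. Every conditioned medium library exceeded every control library, and the rise was 1.48-fold (log2 fold change 0.56 ± 0.080, adjusted p = 5.9e-06, edgeR). The gene lies on chromosome 4, 40270591 to 40279421, minus strand (GRCm39), and 16.39% of its 150-base windows also lie in Smim27, an opposite-strand neighbour with 3 to 15 counts a library.

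The other rises in complex I were smaller. Ndufa12, an accessory subunit of the matrix arm, was at 13.2, 14.7 and 11.95 FPKM in control and 16.8, 15.8 and 15.1 FPKM in conditioned medium (a log2 change of 0.28 ± 0.082, adjusted p = 0.0088). Its groups did not overlap, but without conditioned medium replicate 1 the adjusted p was 0.055. Ndufb8, a membrane arm accessory subunit, was at 15.8, 14.8 and 15 FPKM in control and 17.1, 17.3 and 17.2 FPKM in conditioned medium (0.19 ± 0.053, adjusted p = 0.0052). Its conditioned medium values lay close together, all above the control values. Ndufb9, of the same arm, was at 24.3, 24.9 and 24.0 FPKM against 27.5, 26.8 and 27.3 FPKM (0.17 ± 0.066, adjusted p = 0.036). The groups were separate, yet the call was lost without control replicate 1 (0.087), control replicate 3 (0.068) and each conditioned medium replicate (0.093, 0.057 and 0.094). It was also lost with the total count as the only scaling (0.059), with no expression filter (0.090) and with DESeq2 (0.084). Ndufv3, an accessory subunit of the NADH-oxidizing tip, ranged from 8.38 to 10.5 FPKM in control and from 10.1 to 11.99 FPKM in conditioned medium (0.25 ± 0.081, adjusted p = 0.016). Its groups overlapped, and the adjusted p was 0.060 without control replicate 3 and 0.13 without conditioned medium replicate 1. With limma it was 0.082 and 0.083 on the FPKM pseudocounts and 0.10 on TPM.

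The 3 falls in complex I each depended on single libraries. Ndufs8, a core subunit that carries iron-sulfur clusters, was at 15.8, 15.4 and 14.9 FPKM in control and 12.05, 14.4 and 12.02 FPKM in conditioned medium (a log2 change of -0.25 ± 0.086, adjusted p = 0.024). All conditioned medium values were lower, with replicate 2 nearest to control, and the adjusted p was 0.062 and 0.053 without control replicates 1 and 2 and 0.11 and 0.12 without conditioned medium replicates 1 and 3. Ndufb4, a membrane arm accessory subunit, was at 8.22, 7.39 and 6.57 FPKM in control and 6.29, 5.77 and 5.75 FPKM in conditioned medium (-0.30 ± 0.10, adjusted p = 0.021). Its groups were separated by a small gap, and the adjusted p was 0.12 without control replicate 1 and 0.067 and 0.075 without conditioned medium replicates 2 and 3. Ndufb11, also of the membrane arm, was at 24.1, 26.5 and 19.95 FPKM in control and 18.6, 17.6 and 21.3 FPKM in conditioned medium (-0.27 ± 0.10, adjusted p = 0.029). These ranges overlapped, the adjusted p was 0.059 and 0.19 without control replicates 1 and 2 and 0.097 and 0.14 without conditioned medium replicates 1 and 2, and 117 bases of the gene overlap Rbm10 on the opposite strand. With limma on either FPKM pseudocount the adjusted p was 0.069 and 0.071.

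The most abundant nuclear complex I gene by mean FPKM, Ndufa8, an accessory subunit, was at 49.1, 51.1 and 40.5 FPKM in control and 49.9, 44.2 and 46.7 FPKM in conditioned medium, with overlapping groups (log2 fold change 0.02 ± 0.075, adjusted p = 0.86). Ndufa4, counted here by its symbol, is now assigned to complex IV. It was at 24.7, 28.1 and 23.3 FPKM in control and 22.5, 22.4 and 22.0 FPKM in conditioned medium, with separate groups and no call (-0.17 ± 0.071, adjusted p = 0.055).

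Complex II, succinate dehydrogenase, had 1 rise and no fall among its 4 genes. Sdhd, 1 of its membrane anchors, was at 51.0, 52.7 and 44.7 FPKM in control and 60.2, 64.9 and 62.4 FPKM in conditioned medium. The groups were well apart (log2 fold change 0.35 ± 0.058, 1.28-fold, adjusted p = 3.8e-05), and Sdhd was also the most abundant complex II gene. Its neighbour Timm8b, which encodes a small chaperone of mitochondrial protein import, rose by 0.49 ± 0.090.

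The other 3 subunits of the complex did not rise with it. Sdhc, the second membrane anchor, was at 24.0, 25.1 and 23.4 FPKM in control and 23.7, 25.2 and 23.5 FPKM in conditioned medium, with matching ranges (log2 fold change 0.01 ± 0.050, adjusted p = 0.84). Sdhb, the iron-sulfur subunit, was at 27.4, 29.5 and 25.4 FPKM against 25.8, 27.0 and 22.9 FPKM (-0.10 ± 0.064, adjusted p = 0.20). Its groups overlapped. Sdha, the succinate-oxidizing flavoprotein, was at 48.7, 48.3 and 47.2 FPKM against 46.1, 41.7 and 44.4 FPKM (-0.11 ± 0.045, adjusted p = 0.056). Its groups were separate, and it was called as a fall at an adjusted p of 0.013 without control replicate 3 and 0.038 without conditioned medium replicate 1; without control replicate 3 Sdhb was called too (0.030), which made 3 calls in the complex.

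Complex III, the cytochrome bc1 complex, had 0 calls among 8 tested nuclear genes by edgeR, 0 with DESeq2, 0 with limma on either FPKM pseudocount and 1 on the TPM scale, and 0 had an unadjusted p under 0.05. Their log2 fold changes ran from -0.22 (Uqcr11, a small subunit) to 0.12 (Uqcr10, another small subunit), and no gene had separate groups. Uqcrb, a small subunit on the matrix side, had the highest mean FPKM over the 6 libraries (46.4), at 44.35, 48.85 and 42.8 FPKM in control and 49.95, 49.1 and 43.6 FPKM in conditioned medium (0.08 ± 0.067, adjusted p = 0.34). Its groups overlapped. Uqcrh, the hinge protein that binds near cytochrome c1, had nearly the same mean (45.5), at 45.8, 52.5 and 41.0 FPKM against 45.3, 43.8 and 44.8 FPKM (-0.04 ± 0.069, adjusted p = 0.67). Its conditioned medium values lay inside the control range. Uqcr11 was called without control replicate 1 (-0.31, adjusted p = 0.026) and Uqcrq, a subunit near the ubiquinone site, without control replicate 2 (0.20, adjusted p = 0.046). Outside the symbol rule, Cyc1, the cytochrome c1 subunit of the same complex, rose from 13.3 to 14.7 FPKM to 16.9 to 17.5 FPKM (0.32 ± 0.062, adjusted p = 0.00027).

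Complex IV, cytochrome c oxidase, had 3 nuclear rises and 1 fall of 15 tested, and it held the largest change of all members. Several of its subunits exist as pairs or sets of isoforms with different tissue use, and these sets did not move as 1. Cox4i2 encodes the alternative form of subunit 4, known from lung and from cells in low oxygen. It was at 0.95, 0.50 and 0.91 FPKM in control (14, 8 and 15 counts) and 4.02, 2.93 and 4.76 FPKM in conditioned medium (66, 44 and 80 counts). Each conditioned medium library held several times the control level, a 5.01-fold rise (log2 fold change 2.32 ± 0.30, adjusted p = 1.4e-06, edgeR) that stayed between 2.08 and 2.49 on leaving out each library. Cox4i2 was under 1 FPKM in every control library, so it passed the level filter only through conditioned medium. Members at that level in both groups were not tested. Its call was kept with no expression filter. The gene lies on chromosome 2, 152596093 to 152606957, plus strand (GRCm39).

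Its common partner Cox4i1 remained far more abundant. Cox4i1 was at 86.6, 92.1 and 79.7 FPKM in control and 77.9, 81.3 and 75.0 FPKM in conditioned medium, with overlapping groups and no call (log2 fold change -0.13 ± 0.052, adjusted p = 0.053). Without control replicate 3 it was called as a fall (adjusted p = 0.00072), as it was with the total count as the only scaling (0.028). Per length, Cox4i2 stood at 1.10%, 0.542% and 1.15% of Cox4i1 in control and at 5.17%, 3.60% and 6.35% in conditioned medium. The ratios of the groups were separate, with a log2 difference of 2.48 and an exact permutation p of 0.1 (two-sided), which is the smallest that 3 against 3 allows (0.3 adjusted over the 3 isoform ratios computed).

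Cox7a2 and Cox7a2l, relatives in sequence, moved in opposite directions. Cox7a2, the widely expressed subunit 7A, was at 36.8, 44.3 and 37.5 FPKM in control and 44.7, 47.3 and 47.6 FPKM in conditioned medium, separate by a narrow gap (log2 fold change 0.25 ± 0.069, adjusted p = 0.0055). Cox7a2l, which links complex IV to complex III in supercomplexes, was at 92.3, 84.3 and 77.1 FPKM in control and 72.7, 72.2 and 73.3 FPKM in conditioned medium. All its conditioned medium values were lower (-0.20 ± 0.053, adjusted p = 0.0040). The muscle form Cox7a1 was at 0.90, 0.28 and 0.63 FPKM in control and 0.90, 1.47 and 0.96 FPKM in conditioned medium, below the filter. Without the filter its log2 fold change was 0.89 ± 0.55 (adjusted p = 0.29), and its ratio to Cox7a2 gave an exact permutation p of 0.4.

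**Figure D3:**
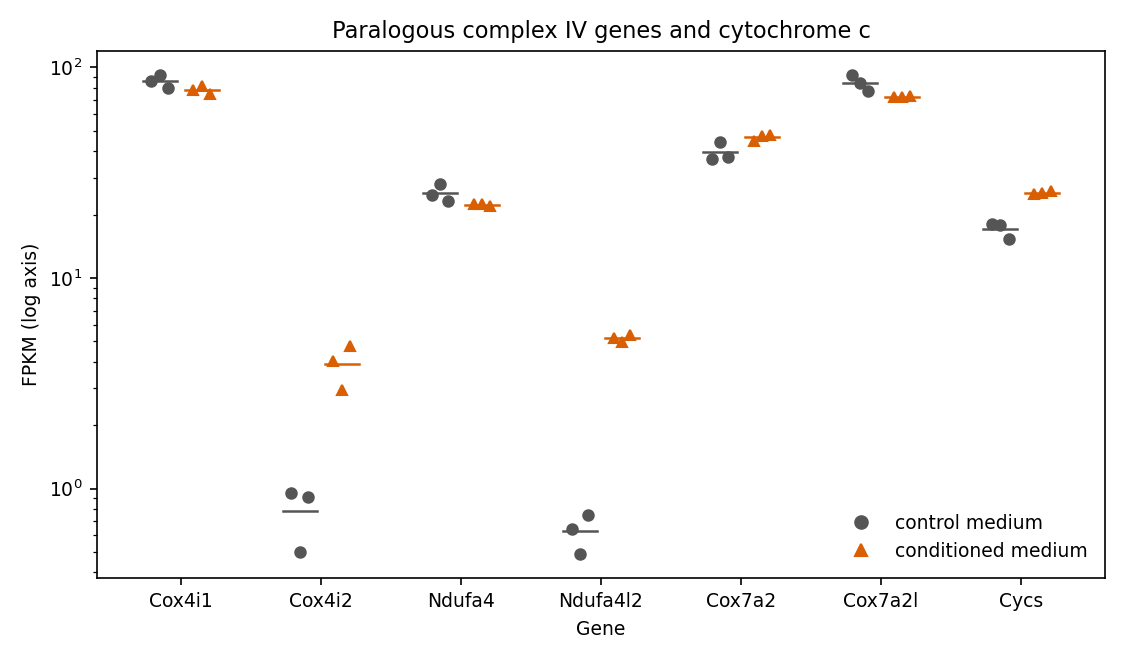
FPKM on a log axis for related complex IV genes and cytochrome c (Cycs); grey circles are the 3 control and orange triangles the 3 conditioned medium libraries, and bars are group means. Cox4i2 and Ndufa4l2 rise from below 1 FPKM to between 2.93 and 5.35 FPKM, while Cox4i1 stays between 75.0 and 92.1 FPKM.

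Cox7b, a small structural subunit with an X-linked gene, rose. It was at 30.9, 38.3 and 30.7 FPKM in control and 45.5, 42.9 and 41.1 FPKM in conditioned medium, with separate groups (log2 fold change 0.39 ± 0.074, adjusted p = 0.00018). The remaining isoform sets showed overlapping groups and no call. Cox6b1, the widely expressed subunit 6B and the most abundant nuclear complex IV gene, was at 116, 122 and 95.5 FPKM in control and 117, 118 and 121 FPKM in conditioned medium (0.11 ± 0.065, adjusted p = 0.18). It was called as a rise without control replicate 2 (adjusted p = 0.031). Its testis form Cox6b2 was at 1.40, 1.42 and 0.74 FPKM against 1.56, 1.42 and 1.06 FPKM (0.20 ± 0.30, adjusted p = 0.62).

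Subunit 6A showed the same picture. Cox6a1, the common form, was at 50.4, 51.7 and 42.4 FPKM in control and 50.7, 50.2 and 42.6 FPKM in conditioned medium (a log2 change of 0.006 ± 0.080, adjusted p = 0.96). Cox6a2, the heart and muscle form, was at 1.58, 1.81 and 1.13 FPKM against 2.05, 1.54 and 1.45 FPKM (0.18 ± 0.32, adjusted p = 0.68), and the ratio of both gave an exact permutation p of 0.5. Cox8a, the common subunit 8, was at 41.3, 48.6 and 45.7 FPKM against 50.5, 44.3 and 43.5 FPKM (0.04 ± 0.078, adjusted p = 0.69). Its conditioned medium values fell on both sides of the control median, and its muscle and testis forms, Cox8b and Cox8c, had no count.

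Complex V, the ATP synthase, had 4 rises and 1 fall of 19 tested nuclear genes. The number of calls was 3 without control replicate 3 and without conditioned medium replicates 1 or 2. Atp5b, the catalytic beta subunit, was at 129, 131 and 119.6 FPKM in control and 156, 156 and 148 FPKM in conditioned medium. All conditioned medium values lay above all control values (1.23-fold, log2 fold change 0.30 ± 0.043, adjusted p = 7.4e-06). By mean FPKM over the 6 libraries Atp5b was the most abundant nuclear member of all (139.9). The alpha subunit Atp5a1, with which it forms the catalytic ring, was at 135, 137 and 125 FPKM in control and 139, 136 and 137 FPKM in conditioned medium. Its groups overlapped (0.08 ± 0.042, adjusted p = 0.16). Atp5o, the subunit that joins the catalytic head to the stalk, was at 33.2, 36.1 and 31.5 FPKM against 37.7, 39.0 and 38.2 FPKM, without overlap (0.20 ± 0.054, adjusted p = 0.0038). Atp5l, a small subunit of the membrane part, was at 7.82, 8.45 and 6.72 FPKM against 8.88, 8.31 and 8.51 FPKM (0.18 ± 0.068, adjusted p = 0.037). Its groups overlapped, and without control replicate 3 (0.19) or any of conditioned medium replicates 1 to 3 (0.14, 0.055 and 0.082) it was not called. Nor was it called with the total count only (0.053), with DESeq2 (0.058) or with limma on either FPKM pseudocount (0.15 and 0.15) or on TPM (0.20).

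The c-ring, the rotor of the synthase, is made of 1 protein encoded by 3 genes, Atp5g1, Atp5g2 and Atp5g3, which differ in the import signal that is cut off. Atp5g2 was the largest nuclear fall among the members, at 19.9, 22.6 and 19.7 FPKM in control and 15.1, 16.7 and 15.9 FPKM in conditioned medium. The groups were separate (log2 fold change -0.37 ± 0.071, adjusted p = 0.00023). Atp5g3 was at 36.0, 33.7 and 29.8 FPKM against 38.6, 36.7 and 34.1 FPKM (0.15 ± 0.062, adjusted p = 0.047). These groups overlapped, and the call was lost without control replicates 2 (0.064) and 3 (0.19) and without conditioned medium replicates 1 (0.23) and 2 (0.12). It was also lost with the total count as the only scaling (0.074), with DESeq2 (0.070) and with limma on either FPKM pseudocount (0.18 and 0.18) or on TPM (0.26). Atp5g1 was at 4.07 to 5.05 FPKM in control and 4.27 to 4.73 FPKM in conditioned medium (-0.03 ± 0.083, adjusted p = 0.78).

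Within the c-ring genes the shares were separate between the groups while the sums overlapped. Atp5g2 made up 32.8%, 36.8% and 36.8% of their summed FPKM in control and 26.0%, 28.7% and 29.2% in conditioned medium. Atp5g3 made up 59.4%, 55.0% and 55.6% against 66.7%, 63.1% and 62.7%, and neither share was tested apart from the genes themselves. The summed level of the 3 genes was 60.7, 61.3 and 53.6 FPKM in control and 58.0, 58.2 and 54.4 FPKM in conditioned medium, with overlap. Of the 150-base windows of Atp5g2, 33.07% also lie in Gm10175, which had 5 to 12 counts a library.

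The promoters of Atp5g2 and Atp5g3 and of the 2 strongest rises with a promoter entry in complexes I and II are shown because they carry, or lack, the letters of factors known to act on respiratory chain genes. The sequences are from RefSeq (GRCm38.p6), 250 bases before to 50 after the start, minus strand throughout, and capitals mark matches on either strand to CCGGAAG (the core of ETS factors such as GABPA), GCATGCG (the core of NRF1 sites), GATGGCG (of YY1 sites) or ACGTG (the core bound by hypoxia-inducible factors). They lie at chr4:40279372-40279671 for Ndufb6, chr9:50603800-50604099 for Sdhd, chr15:102670998-102671297 for Atp5g2 and chr2:73911277-73911576 for Atp5g3.
Ndufb6: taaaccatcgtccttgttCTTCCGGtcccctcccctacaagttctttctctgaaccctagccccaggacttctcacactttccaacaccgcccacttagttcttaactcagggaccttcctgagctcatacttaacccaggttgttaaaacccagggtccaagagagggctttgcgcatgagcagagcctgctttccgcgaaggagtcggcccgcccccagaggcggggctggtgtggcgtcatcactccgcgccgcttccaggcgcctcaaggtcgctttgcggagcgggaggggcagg
Sdhd: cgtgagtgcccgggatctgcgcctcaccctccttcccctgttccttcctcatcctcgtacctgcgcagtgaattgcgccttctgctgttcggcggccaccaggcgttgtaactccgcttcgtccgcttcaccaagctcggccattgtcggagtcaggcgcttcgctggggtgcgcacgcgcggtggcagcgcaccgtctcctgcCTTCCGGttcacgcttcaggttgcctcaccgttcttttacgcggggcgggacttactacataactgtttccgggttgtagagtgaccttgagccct
Atp5g2: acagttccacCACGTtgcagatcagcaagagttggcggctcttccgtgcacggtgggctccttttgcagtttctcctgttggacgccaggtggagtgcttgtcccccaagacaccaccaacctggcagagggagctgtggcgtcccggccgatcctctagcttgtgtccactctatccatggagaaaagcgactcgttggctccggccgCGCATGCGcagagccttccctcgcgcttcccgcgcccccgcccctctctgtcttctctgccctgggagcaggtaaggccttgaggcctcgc
Atp5g3: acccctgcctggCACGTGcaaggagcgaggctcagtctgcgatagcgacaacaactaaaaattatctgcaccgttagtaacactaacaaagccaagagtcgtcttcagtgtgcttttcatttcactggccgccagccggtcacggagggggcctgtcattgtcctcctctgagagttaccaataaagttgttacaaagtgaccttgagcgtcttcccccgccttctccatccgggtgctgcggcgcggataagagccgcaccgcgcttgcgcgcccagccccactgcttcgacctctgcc
Ndufb6 and Sdhd each held 1 ETS core, Atp5g2 held 1 ACGTG and 2 NRF1 matches that overlap on opposite strands, and in Atp5g3 the 2 ACGTG matches are the overlapping strands of 1 CACGTG. A RefSeq promoter was found for 69 of the 85 member symbols that are not pseudogenes. CCGGAAG was in 24.64% of these members and in 9.928% of all 27025 genes with a promoter, GCATGCG in 15.94% and 4.015%, and GATGGCG in 14.49% and 4.037%. ACGTG was in 26.09% of the members and 21.78% of all genes. These are matches of letters in 300 bases, given as a description without a test. The 27025 genes include genes not expressed here, and no background of like expression or base composition was made. The letters for NRF1 and YY1 are short cores that were put in place of longer forms after the shares for those had been seen.

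The 13 mitochondrial genes are cut from long transcripts of a circular genome, in which mt-Nd6 alone of the members lies on the opposite strand. Of these genes mt-Nd1 rose and mt-Nd4, mt-Nd5 and mt-Nd6 fell, all of them subunits of complex I that form its membrane arm. mt-Nd1 was at 1712, 1904 and 1736 FPKM in control and 1995, 1980.5 and 2042 FPKM in conditioned medium. Its groups were separate (log2 fold change 0.19 ± 0.042, adjusted p = 0.0011). mt-Nd5 was at 1268, 1432 and 1437 FPKM against 1201, 1204 and 1233 FPKM (-0.17 ± 0.045, adjusted p = 0.0038), and mt-Nd6, which overlaps it by 14 bases, at 840.4, 942 and 815 FPKM against 752, 717 and 683 FPKM (-0.26 ± 0.051, adjusted p = 0.00034). Neither gene's groups overlapped. The strand setting of the counting is not given, so RNA from the opposite strand may be counted in mt-Nd6. Whether the falls of mt-Nd5 and mt-Nd6 are separate was not tested. mt-Nd4 was at 888, 964 and 961 FPKM against 852, 844 and 854 FPKM (-0.13 ± 0.041, adjusted p = 0.016). Its conditioned medium values were all lower, but the adjusted p was 0.062 without control replicate 2 and 0.058, 0.070 and 0.055 without conditioned medium replicates 1 to 3.

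The other well covered mitochondrial genes were not called. mt-Co1, the catalytic subunit of complex IV, was at 5582, 6223 and 5873 FPKM in control and 6244, 6057 and 6344 FPKM in conditioned medium (a log2 change of 0.09 ± 0.038, adjusted p = 0.053). Its groups overlapped, and it was called as a rise without control replicates 2 (0.0067) and 3 (0.017). Within the mitochondrial members its share of the counts was 48.0%, 48.2% and 47.9% in control and 50.7%, 50.1% and 50.9% in conditioned medium, without overlap. mt-Nd2, a membrane subunit of complex I, was at 1113, 1189.8 and 1144 FPKM against 1108, 1108 and 1128 FPKM (-0.03 ± 0.039, adjusted p = 0.61). mt-Cytb, the ubiquinone-binding subunit of complex III, was at 2210.2, 2453 and 2282 FPKM against 2212, 2179.9 and 2206 FPKM (-0.06 ± 0.040, adjusted p = 0.25). The ranges of both genes overlapped between the groups.

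**Figure D4:**
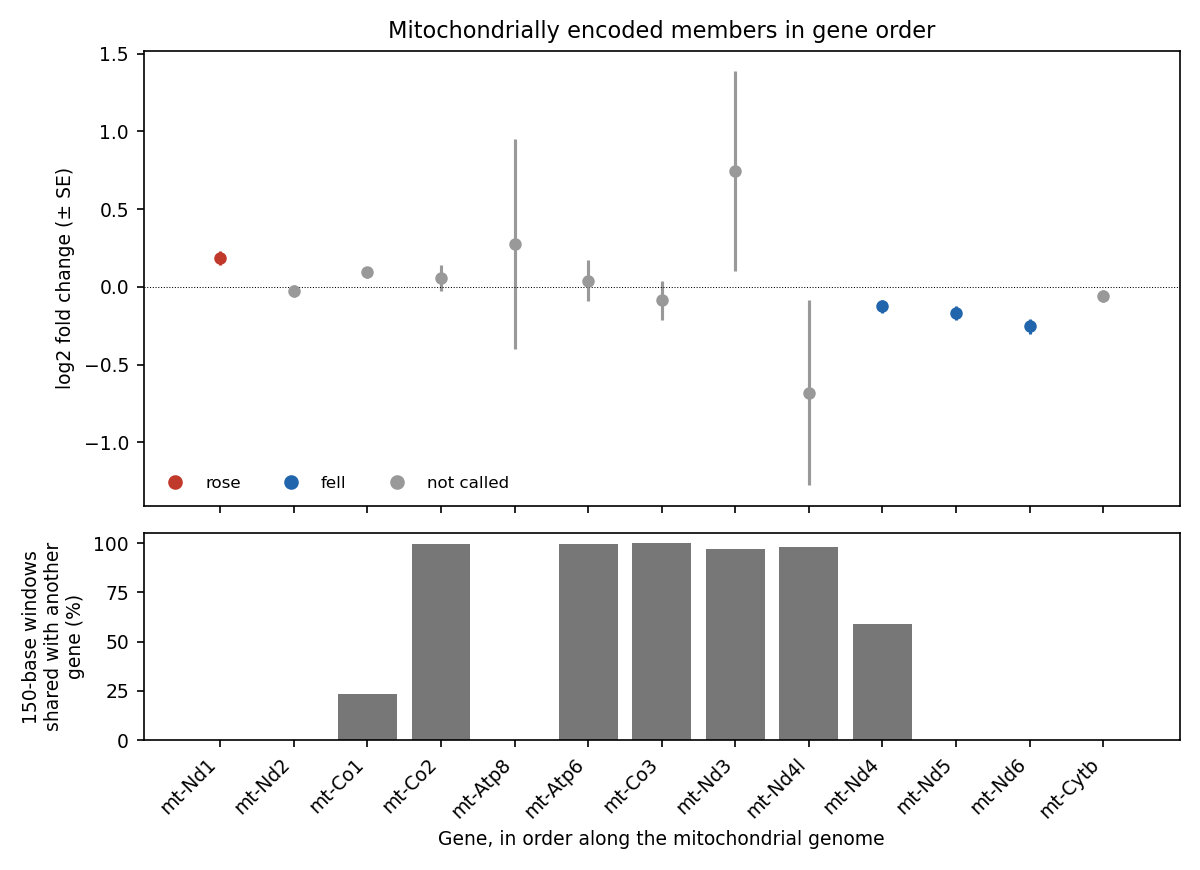
Upper panel: log2 fold change ± SE of each mitochondrial member in its order along the mitochondrial genome, coloured by call. Lower panel: percent of its 150-base windows that also occur in another annotated gene; mt-Co2, mt-Atp6, mt-Co3, mt-Nd3 and mt-Nd4l share over 96% and have few counts, while the called genes mt-Nd1, mt-Nd5 and mt-Nd6 share none.

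A block of mitochondrial genes had far fewer counts than its neighbours, and these genes have near-identical copies on chromosome 1. The shared windows of 150 bases, the read length, came to 99.44% of mt-Co2 (copy Gm28661), 99.44% of mt-Atp6 (Gm10925), 99.84% of mt-Co3 (Gm28437), 96.98% of mt-Nd3 (Gm28438), 97.97% of mt-Nd4l (Gm10222), 59.15% of mt-Nd4 (Gm28439) and 23.64% of mt-Co1 (Gm29216). The copies of mt-Co2, mt-Atp6, mt-Co3, mt-Nd4l and mt-Nd4 had no mismatch over their aligned length. Those of mt-Co1 and mt-Nd3 differed by 6 of 492 and 1 of 345 bases. The first 27 bases of each copy in the GENCODE transcripts, which hold differences from the mitochondrial gene, are shown with the differing bases in capitals.
mt-Co1: ggTCtAAcCggaAttgttttatccaac
Gm29216: ggATtGGcAggaTttgttttatccaac
mt-Nd3: atTaacctgtacactgttatcttcatt
Gm28438: atCaacctgtacactgttatcttcatt
mt-Co2 had 361 to 423 counts a library where mt-Co1 had 160955 to 209047. The sources used here do not give how reads that match several places were counted, so levels cannot be compared between these mitochondrial genes.

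The 5 genes that share over 96% of their windows were not called, while mt-Nd4, which shares 59.15%, was called as a fall. mt-Co2, which takes electrons from cytochrome c, was at 28.3, 27.6 and 29.4 FPKM in control and 26.5, 32.4 and 28.9 FPKM in conditioned medium (a log2 change of 0.06 ± 0.084, adjusted p = 0.62). mt-Co3, a core subunit of complex IV, was at 10.5, 12.8 and 13.3 FPKM against 13.2, 10.8 and 10.2 FPKM (-0.09 ± 0.13, adjusted p = 0.61). mt-Atp6, which forms the proton path of complex V, was at 8.89, 9.03 and 9.60 FPKM against 9.24, 9.31 and 9.43 FPKM (0.04 ± 0.13, adjusted p = 0.84). The groups of all 3 overlapped. mt-Nd3 had 3, 9 and 5 counts against 15, 12 and 2 (0.46, 1.27 and 0.69 against 2.07, 1.81 and 0.27 FPKM), and mt-Nd4l had 6, 6 and 12 against 6, 6 and 3 (1.08, 0.99 and 1.94 against 0.97, 1.06 and 0.47 FPKM). mt-Atp8, which shares no window with another annotated gene, had 2, 4 and 7 counts against 5, 5 and 6 (0.53, 0.96 and 1.65 against 1.18, 1.28 and 1.38 FPKM). A copy of mt-Atp8 outside annotated genes would not be seen by these windows. The copies of its neighbours mt-Atp6 and mt-Co2 lie at 24653055 to 24653732 and 24653966 to 24654646 of chromosome 1, and the stretch between them was not searched. The log2 fold changes of mt-Nd3, mt-Nd4l and mt-Atp8 were 0.74 ± 0.64, -0.68 ± 0.59 and 0.28 ± 0.67, and a difference was not detectable at these counts. With each gene's counts summed with those of its copy, 1 mitochondrial member rose and 3 fell, as before. This sum could hardly change the calls. mt-Nd1, mt-Nd5 and mt-Nd6 have no copy in it, and the copy of mt-Nd4 adds 81 to 133 counts to 22179 to 27564.

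Genes that work with the respiratory chain were counted from lists, read against the same 45.9% of all tested genes. The mitochondrial ribosome, which translates the 13 mitochondrial messages, had 15 rises and 3 falls of 77 tested (median log2 fold change 0.10), with 10 to 15 rises on leaving out each library. Mrpl45 (0.70 ± 0.058), Mrpl39 (0.62 ± 0.069) and Mrpl52 (0.52 ± 0.15) rose most. Protein import and cristae genes had 9 rises and no fall of 16 tested (median 0.16), among them the matrix chaperonins Hspd1 (0.52 ± 0.044) and Hspe1 (0.38 ± 0.052) and the outer membrane pore Tomm40 (0.39 ± 0.077). The TCA cycle and pyruvate dehydrogenase list, which feeds electrons to complexes I and II, had 6 rises and 1 fall of 19 tested. Malate dehydrogenase Mdh2 rose by 0.39 ± 0.046 and Dlst, of the oxoglutarate dehydrogenase complex, by 0.34 ± 0.042, while Idh3g, a subunit of isocitrate dehydrogenase, was at -0.38 ± 0.059.

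Electron carriers and side entries had 4 rises and 1 fall of 19 tested. Cycs, cytochrome c itself, was at 18.1, 17.8 and 15.3 FPKM in control and 24.9, 25.3 and 25.9 FPKM in conditioned medium, with separate groups (log2 fold change 0.59 ± 0.057, adjusted p = 2.6e-08). Gpd2, which passes electrons from glycerol phosphate to ubiquinone, rose by 0.80 ± 0.063, and Pdss1, of ubiquinone synthesis, by 0.53 ± 0.14. Assembly factors had 3 rises and 1 fall of 15 for complex I, 1 and 1 of 3 for complex II, 1 and 0 of 5 for complex III, 4 and 1 of 21 for complex IV, and 2 and 0 of 4 for complex V. These counts rested on single libraries. Complex I had 0 rises without conditioned medium replicate 2 and 1 without conditioned medium replicate 3, control replicate 1 or control replicate 3. Complex II lost its rise without control replicate 3 and without conditioned medium replicates 1 or 2, and its fall without control replicate 2 and without conditioned medium replicate 3. Complex IV had 2 rises without control replicate 2 and without conditioned medium replicates 1 or 2, and complex III had 2 without conditioned medium replicate 3. Cox17, which carries copper to complex IV, rose by 0.54 ± 0.093, Ttc19, of complex III, by 0.35 ± 0.073, and Tmem70 and Atpaf2, of complex V, by 0.35 ± 0.057 and 0.35 ± 0.087.

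Of the nucleotide, phosphate and proton carriers 4 rose and 1 fell of 7 tested. Ucp2, a carrier of the inner membrane in the uncoupling protein family, was at 36.2, 38.6 and 36.6 FPKM in control and 14.9, 14.2 and 14.1 FPKM in conditioned medium. That fall (log2 fold change -1.35 ± 0.046, adjusted p = 9.2e-16) was larger than any called fall among the members. Mitochondrial transcription, DNA and RNA handling had 3 rises and 2 falls of 24 tested, with Tbrg4, an RNA-binding protein of mitochondria, at 0.29 ± 0.079. Tfam, which packages and transcribes mitochondrial DNA, was at 6.53, 6.02 and 6.25 FPKM against 5.89, 5.58 and 5.57 FPKM (-0.13 ± 0.068, adjusted p = 0.14), with separate groups and no call.

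Biogenesis regulators had 3 rises and no fall of 7 tested. These were Nrip1 (0.25 ± 0.053), a corepressor, Pprc1 (0.25 ± 0.066), a coactivator, and Esrra (0.23 ± 0.071), a nuclear receptor of respiratory genes, whose adjusted p of 0.013 became 0.099 with limma on TPM, 0.073 without control replicate 2 and 0.053 without conditioned medium replicate 2. Nrf1, the factor of the GCATGCG site, was at 1.99 to 2.2 FPKM in control and 1.91 to 2.2 FPKM in conditioned medium (-0.01 ± 0.079, adjusted p = 0.92). The coactivator Ppargc1a had 3, 7 and 5 counts in control and 10, 0 and 6 in conditioned medium. Its relative Ppargc1b had 17, 24 and 31 counts against 71, 66 and 70 (0.23 to 0.37 and 0.82 to 0.87 FPKM), below the filter. In the fit without the filter Ppargc1b gave a log2 fold change of 1.51 ± 0.24 (adjusted p = 7.4e-09).

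The largest changes lay in a list of mitochondrial genes linked to low oxygen, of which 7 rose and 1 fell of 9 tested (median log2 fold change 0.79). The list includes Cox4i2, and it was drawn up with earlier results of these data known, so its direction is not independent evidence. Ndufa4l2, a low-oxygen relative of Ndufa4, was at 0.64, 0.49 and 0.75 FPKM in control and 5.18, 4.98 and 5.35 FPKM in conditioned medium. Its groups were wide apart (3.05 ± 0.22, adjusted p = 2.5e-10), where Ndufa4 was not called. Ndufa4l2, like Cox4i2, passed the level filter only through its conditioned medium values. Bnip3, which marks mitochondria for removal, was at 37.8, 38.6 and 35.8 FPKM against 91.3, 95.3 and 95.4 FPKM (1.35 ± 0.046, adjusted p = 9.1e-16). Pdk1, the kinase that shuts pyruvate dehydrogenase, was at 8.05, 7.93 and 7.88 FPKM against 13.8, 13.7 and 13.3 FPKM (0.79 ± 0.046, adjusted p = 7.5e-12). All conditioned medium libraries were above all control libraries for these genes. Subunits outside the symbol rule, a list of 8 rows of which 6 were tested and which holds Ndufb1, a member, had 3 rises and 1 fall. Besides Cyc1 and Ndufa4l2, Ndufab1, the acyl carrier protein of complex I, rose by 0.33 ± 0.068.

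**Figure D5:**
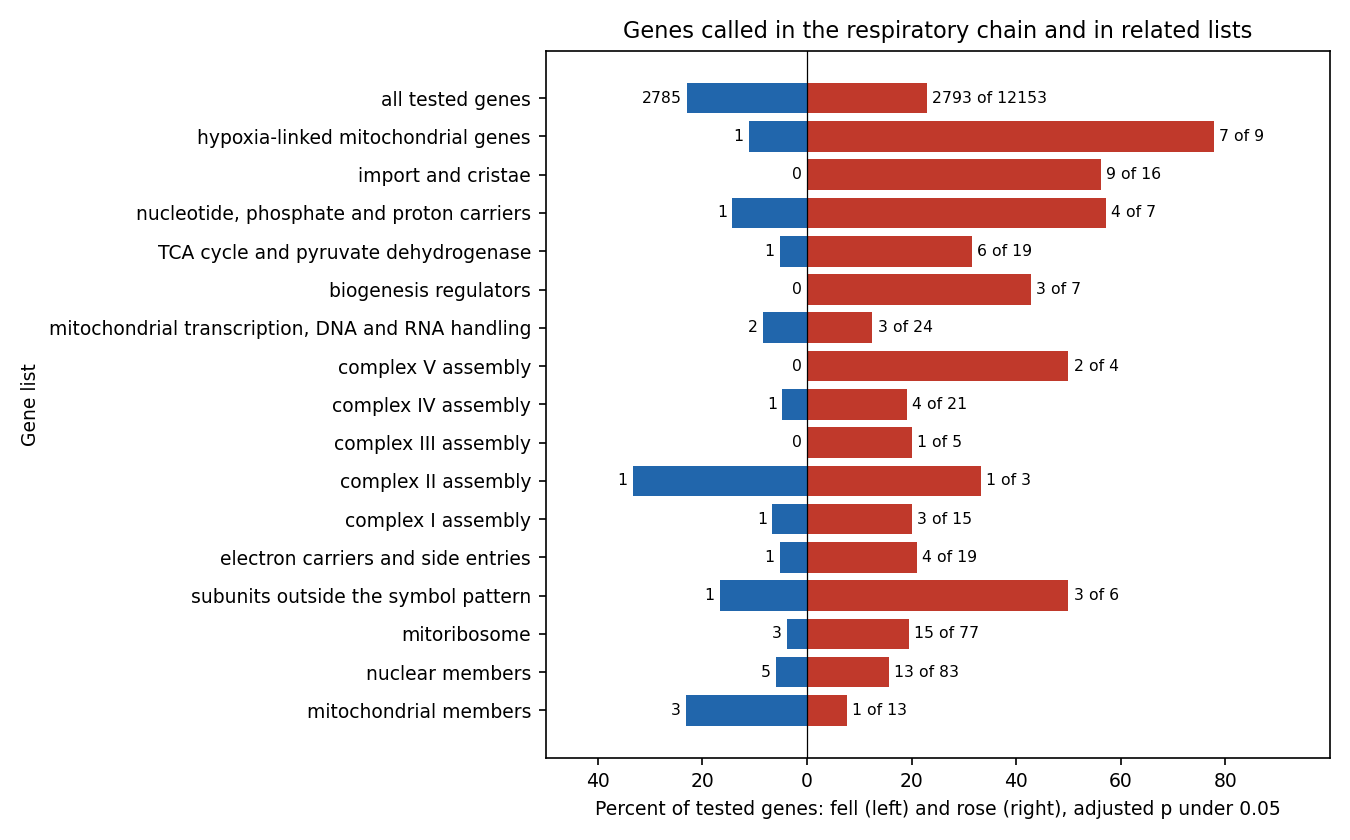
Bars give the percent of tested genes in each list that rose (right, red) or fell (left, blue) at an adjusted p under 0.05, with the numbers beside them. Nuclear members, with 13 rises and 5 falls of 83, and mitochondrial members, with 1 and 3 of 13, have shorter bars to the right than the import and cristae list, with 9 rises of 16.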

How the data were processed

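RNA of 6 mouse samples was poly(A) selected (oligo(dT) beads) and read as 150-base paired ends, per the labels' protocols. Tools named in the submitters' processing notes, without role or order, are HTSeq 0.6.1, HISAT2 2.0.1, DESeq2 and cutadapt 1.9.1, with the GRCm39 build. The authors deposited 1 table with read counts per gene, not normalized, and FPKM values, per the file headers; the deposited FPKM equal the count over exonic length and total count within 0.006 in 100% of values. The sources used here do not give the strand setting of the counting.

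The deposited counts were tested with edgeR 4.0.16 (R 4.3.3, quasi-likelihood, TMM factors, group as the single term) over 12153 genes with a mean of at least 1 FPKM, with Benjamini-Hochberg adjustment over all of them. Calls are at an adjusted p under 0.05. SE was taken as the absolute log2 fold change of a fit without shrinkage, divided by the root of the F statistic. The log2 fold changes printed beside it carry edgeR's default shrinkage. DESeq2 1.42.0, limma 3.58.1 on log2(FPKM + 1), log2(FPKM + 0.1) and log2(TPM + 1), other scalings and filters, a replicate block and leaving out each library were alternatives; functions were tested on simulated data. Members and lists were chosen with earlier results of these data known. Values per sample are given for mitochondrial members, the largest called changes and the most abundant nuclear member of each complex, the Sdh genes, isoform sets and up to 3 called genes a list. Shared windows came from GENCODE M21 transcripts (GRCm38), from which no gene coordinates were taken; member positions are the file's. The counting precision follows from the totals per library, 18661629 to 21329475.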

Additional observations from a re-analysis of the deposited data

How the results depend on the processing

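Of the 22 called members, 13 were called in all of 17 alternatives, and no member that was called reversed its direction in any of them. Of 1628 single-member comparisons with an alternative, 49 lost a call and 43 gained one. Complex II had 2 calls in place of 1 with the total count as the only scaling, with limma on log2(FPKM + 1) and on log2(TPM + 1), and complex III had 1 in place of 0 on the TPM scale. Complex V had 3 calls in place of 5 with the total count only, with DESeq2 and with limma on either FPKM pseudocount or on TPM. Leaving out each library gave 3 to 11 calls in complex I, 1 to 3 in complex II, 0 to 1 in complex III, 4 to 5 in complex IV and 3 to 6 in complex V, 12 to 24 over all nuclear and 3 to 5 over all mitochondrial members. The cause was not tested.

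The sources used here do not say whether replicate numbers pair the samples, and correlations between libraries cannot settle it. Same-numbered libraries had correlations of their deviations of -0.003, 0.065 and 0.074. Differently numbered libraries had -0.081 to 0.015. With the replicate block, 24 nuclear members were called, 16 as rises and 8 as falls, 4 mitochondrial members and 2 members of complex II, and over all genes 5662 were called. Few counts limit what can be said of mt-Nd3, mt-Nd4l and mt-Atp8, at 2 to 15 counts a library, and of the untested members. The copies on chromosome 1 were summed with the mitochondrial genes as an alternative chosen after seeing the data. Leaving out pseudogenes, which left 18 nuclear calls, was chosen likewise. So was keeping the mitochondrial members with no shared window except mt-Atp8, which gave a median log2 fold change of -0.06.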

Other observations

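Other transcripts of the mitochondrial genome, which belong to no comparison above, were not called either. The ribosomal RNA mt-Rnr1 was at 156, 212 and 149 FPKM in control and 173, 163 and 157 FPKM in conditioned medium (a log2 change of -0.05 ± 0.086, adjusted p = 0.65, edgeR), and mt-Rnr2 at 278, 360.5 and 276 FPKM against 293, 299 and 294 FPKM (-0.03 ± 0.070, adjusted p = 0.74). Control replicate 2 was the highest library for both. The transfer RNA mt-Tp, which lies antisense to the main coding strand, was at 222, 215 and 191 FPKM against 176, 193 and 214 FPKM (-0.09 ± 0.10, adjusted p = 0.50), with overlapping groups.

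The chromosome 1 copies of mt-Co2, mt-Atp6, mt-Co3, mt-Nd3 and mt-Nd4l had counts of the same order as those genes, while the copies of mt-Nd4 and mt-Co1 had far fewer. Gm28661 had 174, 194 and 186 counts in control and 216, 207 and 195 in conditioned medium beside the 361 to 423 of mt-Co2, and Gm10925 had 238, 296 and 333 against 281, 221 and 282 beside the 113 to 137 of mt-Atp6. Gm28439 had 81 to 133 counts a library beside the 22179 to 27564 of mt-Nd4, and Gm29216 had 62 to 126 beside the 160955 to 209047 of mt-Co1. None of the tested copies was called.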
